A study of Mus musculus with 8 samples.

Results

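The feedback regulators of TGF-β signalling described here are 10 mouse genes whose products limit Smad signalling, taken by symbol from the 54532 Ensembl gene identifiers of the count files. They are 4 nuclear corepressors (*Ski*, *Skil*, *Tgif1* and *Tgif2*), 3 ubiquitin ligases (*Smurf1*, *Smurf2* and *Nedd4l*) and 3 inhibitors at membranes (*Bambi*, *Pmepa1* and *Ldlrad4*). The rule takes them by function and uses no measured value, but it was written with earlier results of these data known. Bulk RNA-seq was performed on primary cultures of wild-type mouse brain pericytes, the mural cells that wrap capillaries. There were 4 cultures with vehicle (replicates 1 to 4) and 4 cultures with TGF-β1 at 5 μg/mL (replicates 5 to 8), all sampled at 48 h. The cells had been isolated from digested brain and expanded over several passages in growth medium, outside the vessel wall, before they were treated. The comparison asks how these brakes on the pathway responded while the ligand was present.

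As background, TGF-β binds paired serine-threonine kinase receptors that phosphorylate Smad2 and Smad3. These join Smad4, enter the nucleus and act on target genes, and some of the targets encode proteins that dampen the signal. Ski and SnoN (the product of *Skil*) bind Smad complexes and recruit histone deacetylases, Tgif proteins are homeodomain corepressors of Smad2 and Smad3, Smurf and Nedd4-like ligases mark receptors and Smads for degradation, Bambi is a receptor-like protein with no kinase domain, and Pmepa1 and its relative Ldlrad4 are membrane proteins that keep Smad2 and Smad3 from the receptor. Several of these genes are themselves textbook targets of Smad3.

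Tested with edgeR's quasi-likelihood method at a threshold of 0.05 on the adjusted p, 9 of the 10 regulators were higher with TGF-β1, 1 was not called and 0 were lower. At an unadjusted p under 0.05, too, 0 were lower, and all 10 passed the filter on low counts. Over all 22544 genes tested, 20.9% were called higher and 20.3% lower. These shares are not matched for level, and a small change is easier to call in a more abundant gene. Of the 10 genes, 8 had groups that did not overlap, all higher with TGF-β1, where 37.9% of all genes tested had such groups, 19.1% with TGF-β1 higher and 18.8% with TGF-β1 lower. The rises were of very different size, from 2.14-fold for *Pmepa1* and 1.96-fold for *Skil* to 1.06-fold for *Smurf2*. The median log2 fold change of the 10 was 0.38, and that of all genes tested was -0.01. Their summed level was between 803 and 832 CPM (the count of a gene as a share of its library after TMM scaling) in the vehicle cultures and between 1204 and 1279 CPM in the TGF-β1 cultures. Most of the difference came from *Pmepa1* (mean 162.5 CPM with vehicle and 347.3 CPM with TGF-β1) and *Skil* (103.9 and 203.7 CPM). In bulk RNA, more RNA per cell and more cells of a type that carries it cannot be told apart.

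**Figure D1:**
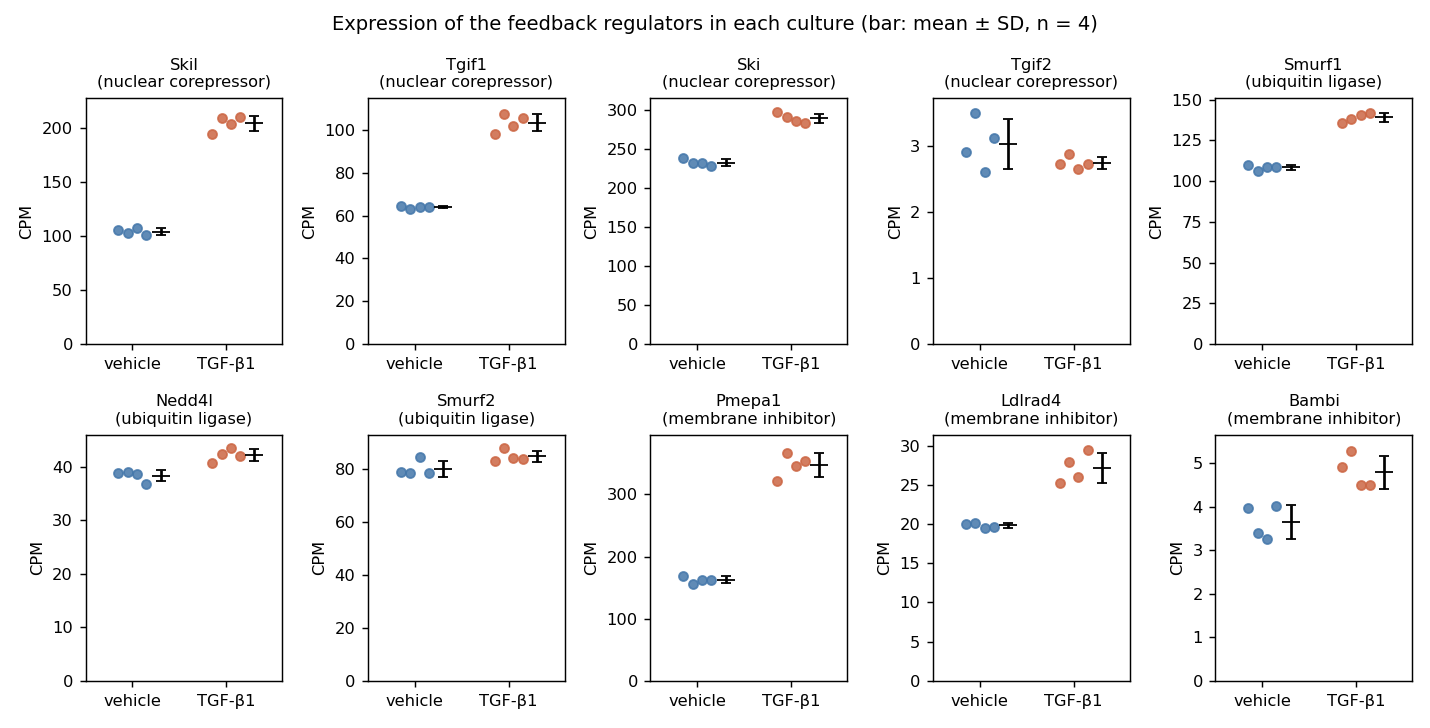
Level of each of the 10 regulators in CPM (y axis, from 0) in the 4 vehicle (blue) and 4 TGF-β1 (orange) cultures, with the group mean ± SD in black. *Skil* and *Pmepa1* stand far apart between the groups, and only *Smurf2* and *Tgif2* have groups that overlap.

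The cultures were sequenced to a similar depth, with totals between 45255235 and 47651397 counts and no detectable difference between treatments (p = 0.857 in a two-sided exact permutation test). Of 10 genes listed as known responders to TGF-β, 9 rose and 1 fell. *Cthrc1*, which encodes a secreted matrix protein, had 31.3 ± 1.57 CPM with vehicle and 65.1 ± 2.19 CPM with TGF-β1 (mean ± SD of 4 cultures), while *Tgfbi*, a matrix protein gene named for its induction by TGF-β, had 230.0 ± 4.78 and 81.2 ± 10.3 CPM and was the gene that fell. Of 10 pericyte markers, 5 had a mean below 1 CPM (*Des*, *Kcnj8*, *Abcc9*, *Vtn* and *Higd1b*), 2 rose (*Pdgfrb* and *Cspg4*), 2 fell (*Rgs5* and *Anpep*), and *Notch3* was at 88.5 and 85.9 CPM. No marker was at 0 in all cultures. The summed level of the 10 ranged from 414 to 434 CPM with vehicle and from 569 to 591 CPM with TGF-β1. Of 6 fibroblast markers, 2 rose and 2 fell, and their sum lay between 2861 and 2999 CPM with vehicle and between 3981 and 4157 CPM with TGF-β1, most of it from *Col1a1* and *Col3a1*. Of 8 endothelial markers, 3 had a mean below 1 CPM (*Cldn5*, *Tie1* and *Emcn*) and *Pecam1* was at 1.11 CPM in both groups, *Cdh5* was at 375 ± 6.23 and 367 ± 12.9 CPM, *Flt1* rose from 81.7 ± 1.32 to 99.2 ± 1.11 CPM, *Tek* fell from 2.71 ± 0.575 to 1.99 ± 0.164 CPM, and the sum lay between 471 and 484 CPM with vehicle and between 472 and 498 CPM with TGF-β1. Of 6 astrocyte markers, *Slc1a2* and *S100b* fell and *Aldh1l1* and *Slc1a3* rose, and the sum, most of it from *Slc1a2* with vehicle (38.5 CPM, and 16.3 CPM with TGF-β1), lay between 54.9 and 61.9 CPM with vehicle and between 40.7 and 45.7 CPM with TGF-β1. With vehicle and with TGF-β1, macrophage and microglia markers (1 of 8 higher, 0 lower) summed to between 109 and 114 and between 109 and 111 CPM, nearly all of it from *Tmem119*, oligodendrocyte markers (1 of 6 higher, 1 lower) to between 4.12 and 5.48 and between 5.34 and 6.05 CPM, and smooth muscle markers (1 of 6 higher, 1 lower) to between 818 and 889 and between 770 and 801 CPM. Most of the smooth muscle sum came from *Acta2*, which was not called (731 ± 30.1 CPM with vehicle and 715 ± 17.2 CPM with TGF-β1). The smooth muscle marker that fell was *Smtn* (125 ± 3.17 to 61.6 ± 2.97 CPM), and *Cnn1* rose (1.90 ± 0.267 to 2.44 ± 0.331 CPM). The part of these shifts in the results on the regulators was not tested.

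Among the nuclear corepressors, *Skil* (ENSMUSG00000027660, chromosome 3, 31095058 to 31122577 of GRCm38, plus strand) rose most. It encodes SnoN, which TGF-β is known both to degrade as a protein and to induce as a gene. Its level was 105, 102, 108 and 101 CPM in vehicle replicates 1 to 4 and 194, 209, 203 and 209 CPM in TGF-β1 replicates 5 to 8. Every TGF-β1 culture was far above every vehicle culture. Its log2 fold change of 0.97 had a standard error of 0.028 (adjusted p = 6.56e-30, edgeR's quasi-likelihood test) and was larger in size than that of 94.1% of all genes tested.

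*Ski* (ENSMUSG00000029050, chromosome 4, 155154075 to 155222592, minus strand), the founding member of the family, was more abundant and rose less. Its level was 239, 232, 233 and 229 CPM with vehicle and 297, 291, 286 and 283 CPM with TGF-β1. The groups did not overlap, and the cultures within a group differed by a coefficient of variation of 2.03%, where the median of all genes tested was 8.31%. On the log2 scale the rise was 0.31 ± 0.024 (standard error, adjusted p = 4.04e-15 in the same test), a fold of 1.24.

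*Tgif1* (ENSMUSG00000047407, chromosome 17, 70844205 to 70853546, minus strand) encodes a homeodomain corepressor that also limits retinoic acid signalling. Its level was 64.2, 63.1, 64.1 and 64.0 CPM with vehicle and 98.2, 107, 102 and 106 CPM with TGF-β1. The vehicle cultures were almost equal and the TGF-β1 cultures lay well above them. It rose by 0.69 ± 0.030 on the log2 scale (standard error, adjusted p = 2.52e-23), a fold of 1.62.

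*Tgif2* (ENSMUSG00000062175, chromosome 2, 156840007 to 156855570, plus strand), its close relative, was the regulator that was not called. It had between 122 and 160 counts per culture, at 2.91, 3.51, 2.61 and 3.12 CPM with vehicle and 2.73, 2.88, 2.66 and 2.72 CPM with TGF-β1. The TGF-β1 values lay within the range of the vehicle values. On the log2 scale TGF-β1 differed from vehicle by -0.14 ± 0.13 (standard error, adjusted p = 0.403), with a 95% interval from -0.40 to 0.11, so a rise as large as that of *Tgif1* lies outside the interval while a small change in either direction was not detectable at this depth. Genes on the opposite strand, *5430405H02Rik* and *Gm37790*, overlap 61.6% of its exon length, and 18.0% of the 50-base words of its transcripts occur in other genes. The libraries were made with a stranded kit, but the strand setting of the counting is not stated, so its count is uncertain. *5430405H02Rik* was at 4.71 ± 0.430 CPM with vehicle and 4.38 ± 0.483 CPM with TGF-β1, and *Gm37790* at 2.27 ± 0.419 and 1.78 ± 0.420 CPM (SD, n = 4 each), neither of them called.

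**Figure D2:**
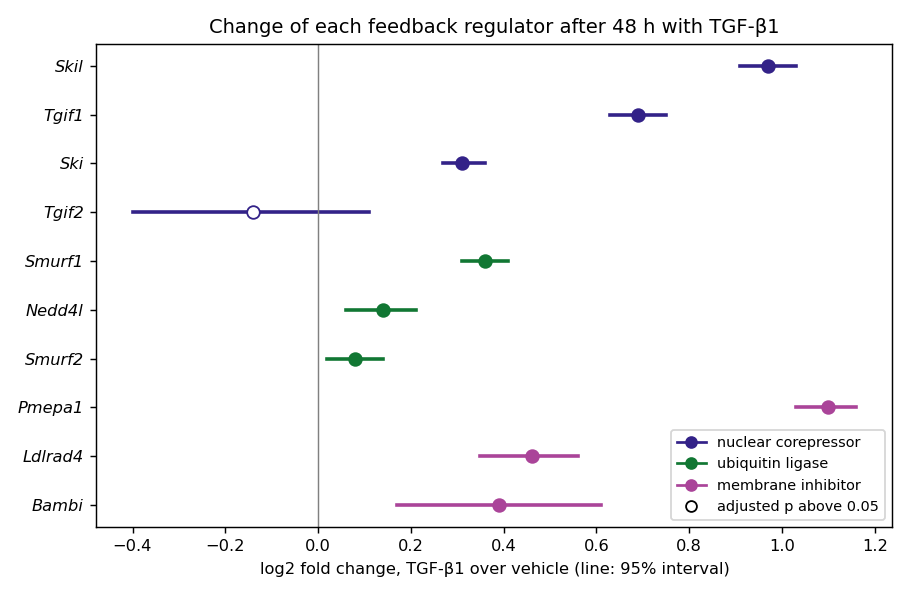
Log2 fold change of each regulator (x axis, TGF-β1 over vehicle) with its 95% interval, coloured by role. The filled points have an adjusted p under 0.05, from 1.10 for *Pmepa1* down to 0.08 for *Smurf2*, and the interval of *Tgif2* (open point) spans 0.

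The 3 ubiquitin ligases rose by between 0.08 and 0.36 on the log2 scale. *Smurf1* (ENSMUSG00000038780, chromosome 5, 144876495 to 144965847, minus strand), which targets Smads, receptors and the GTPase RhoA, was at 110, 106, 109 and 109 CPM with vehicle and 136, 138, 141 and 142 CPM with TGF-β1. The groups did not overlap, and the rise was 0.36 ± 0.026 on the log2 scale (standard error, adjusted p = 1.05e-15), a fold of 1.28.

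*Smurf2* (ENSMUSG00000018363, chromosome 11, 106820066 to 106920715, minus strand), the partner of Smad7 at the receptor, was at 78.6, 78.2, 84.3 and 78.4 CPM with vehicle and 83.0, 87.8, 84.0 and 83.5 CPM with TGF-β1. Vehicle replicate 3 lay above 3 of the TGF-β1 cultures, so the groups overlapped. The rise was 0.08 ± 0.030 on the log2 scale (standard error, adjusted p = 0.0264), a fold of 1.06. The call was lost without vehicle replicate 1, 2 or 4 (adjusted p = 0.0540, 0.0647 and 0.0848), without TGF-β1 replicate 6 or 7 (0.142 and 0.0543), and when all genes with at least 1 count were tested (0.0639), and the adjusted p over its 15 alternatives ranged from 0.00229 to 0.142. Without vehicle replicate 3 the log2 fold change was 0.12.

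*Nedd4l* (ENSMUSG00000024589, chromosome 18, plus strand), a ligase that acts on linker-phosphorylated Smad2 and Smad3 and on the epithelial sodium channel, was at 38.9, 39.1, 38.7 and 36.8 CPM with vehicle and 40.8, 42.4, 43.5 and 42.1 CPM with TGF-β1. The groups did not overlap, but the rise was small, at 0.14 ± 0.038 on the log2 scale (standard error, adjusted p = 0.00263). A change of this size was common, since only 40.2% of all genes tested changed less.

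The membrane inhibitors included the largest rise of the 10. *Pmepa1* (ENSMUSG00000038400, chromosome 2, 173224458 to 173276533, minus strand), which binds Smad2 and Smad3 and recruits Nedd4-family ligases through its PY motifs, was at 169, 156, 163 and 163 CPM with vehicle and 322, 367, 346 and 354 CPM with TGF-β1. The lowest TGF-β1 culture, replicate 5, was still far above the highest vehicle culture. It rose by 1.10 ± 0.032 on the log2 scale (standard error, adjusted p = 4.07e-19), a change larger in size than that of 95.5% of all genes tested.

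*Ldlrad4* (ENSMUSG00000024544, chromosome 18, plus strand), the relative of *Pmepa1*, was at 20.01, 20.14, 19.49 and 19.63 CPM with vehicle and 25.27, 27.94, 26.03 and 29.41 CPM with TGF-β1. The groups did not overlap, and the spread was wider in the TGF-β1 cultures. Its rise was 0.46 ± 0.050 on the log2 scale (standard error, adjusted p = 2.04e-10). *Fam210a* and *Mir7219* on the opposite strand overlap 52.1% of its exon length. *Fam210a* was at 63.7 ± 1.24 CPM with vehicle and 73.5 ± 1.24 CPM with TGF-β1 (SD, n = 4 each), a log2 fold change of 0.21. Whether the overlap adds reads to the count of *Ldlrad4* or removes them was not tested.

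*Bambi* (ENSMUSG00000024232, chromosome 18, plus strand), the pseudoreceptor, was scarce, with between 155 and 243 counts per culture. It was at 3.97, 3.40, 3.26 and 4.03 CPM with vehicle and 4.91, 5.29, 4.50 and 4.51 CPM with TGF-β1. The groups did not overlap, although the highest vehicle and the lowest TGF-β1 culture were close. The fitted rise was 0.39 ± 0.11 on the log2 scale (standard error, adjusted p = 0.00268), with a 95% interval from 0.17 to 0.61.

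The ratio of counts within each culture is described for 4 pairs of related regulators, chosen after their values were seen because they differed in response, and so with no test. A ratio within a culture does not depend on the scaling of the libraries. *Skil* had 0.441, 0.440, 0.462 and 0.442 counts for each count of *Ski* with vehicle and 0.651, 0.716, 0.710 and 0.739 with TGF-β1. The ratio was higher in all TGF-β1 cultures, by 1.58-fold (0.66 on the log2 scale). *Tgif1* had between 18.0 and 24.6 counts for each count of *Tgif2* with vehicle and between 36.0 and 38.8 with TGF-β1, a rise of the ratio of 1.78-fold. For *Smurf1* to *Smurf2* the range was 1.29 to 1.40 with vehicle and 1.58 to 1.70 with TGF-β1, a rise of 1.21-fold, and for *Pmepa1* to *Ldlrad4* it was 7.72 to 8.45 and 12.1 to 13.3, a rise of 1.56-fold. In each of the 4 pairs the groups did not overlap, which follows from the choice of the pairs. The counts are not divided by gene length here, so they say how the balance moved and not which gene of a pair is more abundant. Genes on the opposite strand overlap the exons of *Tgif2* and *Ldlrad4*, and their effect on the ratios with these genes was not tested.

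**Figure D3:**
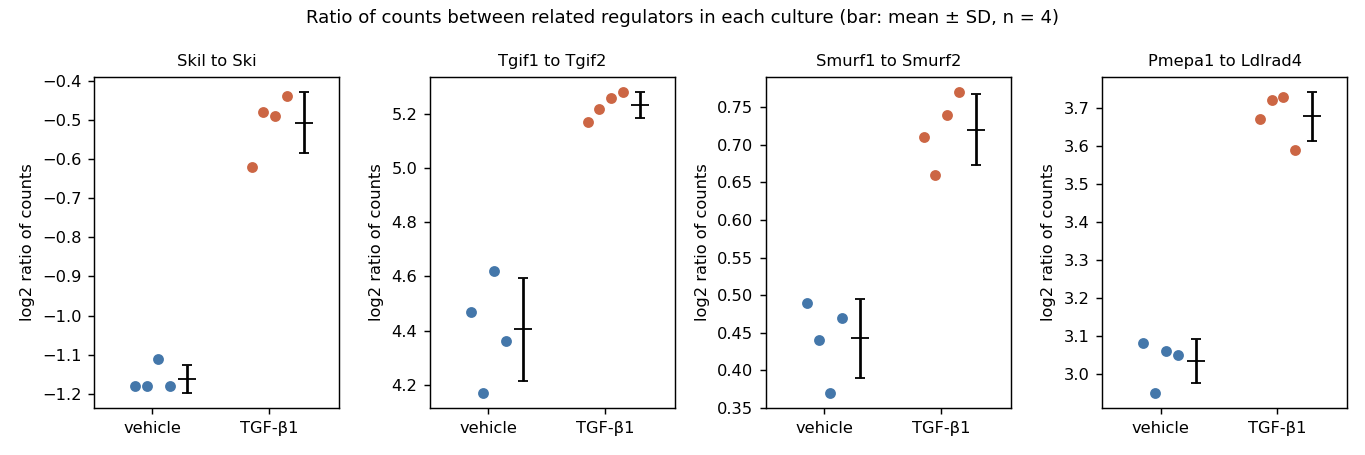
Log2 ratio of counts between related regulators (y axis, not starting at 0) in each vehicle (blue) and TGF-β1 (orange) culture, with the group mean ± SD. All TGF-β1 cultures lie above all vehicle cultures in the 4 pairs, by 0.66, 0.83, 0.28 and 0.64 on the log2 scale from left to right.

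Levels were compared between genes as CPM per kilobase of exon, with all annotated exons of a gene merged. In the vehicle cultures the order was *Ski* (41.9 ± 0.764), *Pmepa1* (33.1 ± 1.12), *Smurf1* (17.1 ± 0.267), *Smurf2* (13.0 ± 0.482), *Tgif1* (11.4 ± 0.0916), *Skil* (10.7 ± 0.308), *Ldlrad4* (3.69 ± 0.0570), *Nedd4l* (2.17 ± 0.0613), *Tgif2* (0.792 ± 0.0987) and *Bambi* (0.722 ± 0.0771 CPM per kilobase, SD, n = 4 each). Among neighbours in this order, only the ranges of *Tgif2* and *Bambi* overlapped. With TGF-β1, *Pmepa1* (70.7 ± 3.85) stood above *Ski* (52.1 ± 1.11), and *Skil* (21.0 ± 0.750) and *Tgif1* (18.4 ± 0.710) stood above *Smurf2* (13.7 ± 0.358 CPM per kilobase). *Smurf1* (22.0 ± 0.445) and *Skil* were then the only neighbours whose ranges overlapped, and *Bambi* (0.946 ± 0.0746) lay above *Tgif2* (0.717 ± 0.0235 CPM per kilobase). *Ski* and *Pmepa1* were among the more abundant messages of these cells, above 96.2% and 96.7% of the genes tested over all cultures, while *Bambi* and *Tgif2* were above 28.1% and 26.4%. Exons that pericytes do not use make a gene appear lower on this scale, and which exons they use was not measured. Opposite-strand genes overlap 61.6% of the exon length of *Tgif2* and 52.1% of that of *Ldlrad4*. What this does to their places in the order was not tested. Merged exon lengths ran from 3832 bases for *Tgif2* to 17659 bases for *Nedd4l*.

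**Figure D4:**
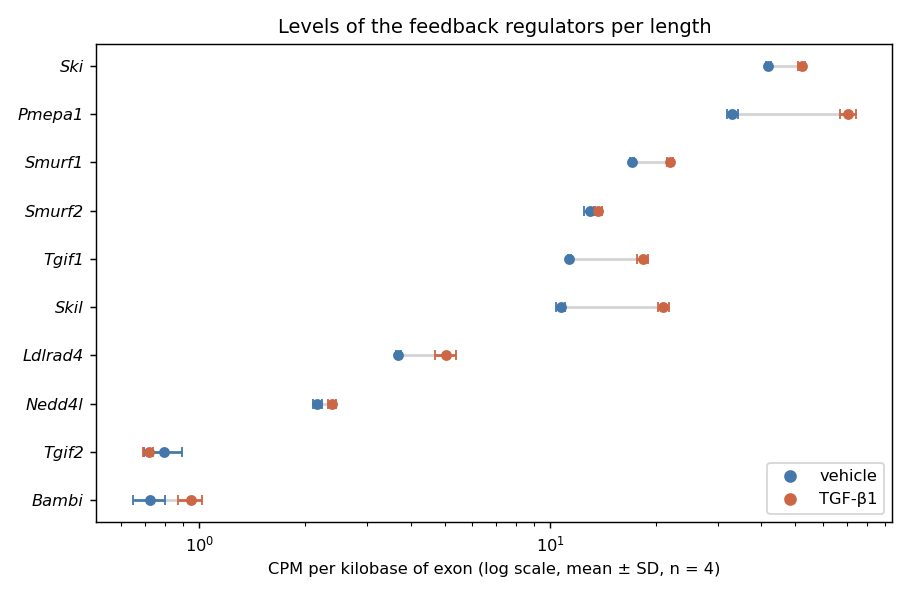
Level of each regulator in CPM per kilobase of exon (x axis, log scale), mean ± SD of 4 cultures, vehicle in blue and TGF-β1 in orange. *Pmepa1* passes *Ski*, and *Skil* and *Tgif1* pass *Smurf2*.

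The bases just upstream of the start are shown for both pairs of relatives whose sequences were at hand, chosen because the values within each pair differed, so that a match is no support for a link with them. RefSeq's promoter table (GRCm38.p6) held 5 of the 10 regulators (*Ski*, *Smurf1*, *Smurf2*, *Tgif1* and *Tgif2*). The sequences run 5′ to 3′ on the strand of the gene and end at the RefSeq or GENCODE start, whichever lies further upstream. Capitals mark CAGACA or its reverse complement TGTCTG, letters that hold the core bound by Smad3 and Smad4.

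Tgif1: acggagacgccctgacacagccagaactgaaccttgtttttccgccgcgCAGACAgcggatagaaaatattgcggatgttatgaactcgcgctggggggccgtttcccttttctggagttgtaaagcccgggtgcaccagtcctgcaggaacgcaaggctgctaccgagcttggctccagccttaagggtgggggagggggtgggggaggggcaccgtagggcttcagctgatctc

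Tgif2: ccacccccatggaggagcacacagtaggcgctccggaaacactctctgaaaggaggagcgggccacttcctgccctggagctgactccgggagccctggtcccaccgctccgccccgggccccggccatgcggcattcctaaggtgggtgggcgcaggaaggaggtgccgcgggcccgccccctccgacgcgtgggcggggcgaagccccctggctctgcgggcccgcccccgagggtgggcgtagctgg

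Smurf1: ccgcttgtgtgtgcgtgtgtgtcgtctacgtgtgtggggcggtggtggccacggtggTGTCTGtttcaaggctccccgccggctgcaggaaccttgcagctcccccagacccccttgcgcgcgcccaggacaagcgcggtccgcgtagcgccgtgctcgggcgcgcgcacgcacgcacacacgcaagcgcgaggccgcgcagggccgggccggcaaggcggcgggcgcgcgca

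Smurf2: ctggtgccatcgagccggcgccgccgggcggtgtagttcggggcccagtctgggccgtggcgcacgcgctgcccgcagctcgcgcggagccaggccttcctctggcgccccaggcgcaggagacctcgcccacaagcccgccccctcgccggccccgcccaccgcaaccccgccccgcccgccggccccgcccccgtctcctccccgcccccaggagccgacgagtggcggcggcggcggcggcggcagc

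The *Tgif1* stretch lies at chr17:70853547-70853782 on the minus strand, that of *Tgif2* at chr2:156839757-156840006 on the plus strand, that of *Smurf1* at chr5:144965848-144966080 and that of *Smurf2* at chr11:106920716-106920965, both on the minus strand. *Tgif1* and *Smurf1* each held 1 match, beginning 201 and 193 bases before the RefSeq start. *Tgif2*, which was not called, and *Smurf2* and *Ski*, which rose, held 0 in their 250 upstream bases. The shorter core within the motif, AGAC or its reverse complement GTCT, was not searched for. Unmarked copies of it lie in the printed stretches of *Tgif1*, *Smurf1* and *Smurf2*, so 0 matches does not mean that the core is absent. Of all 32851 windows of that length in the table, 17.1% held the motif on either strand, so a match in any one window is common. Of the 4 other RefSeq starts of *Tgif1*, 1 had a match too. The palindrome GTCTAGAC, present in 0.167% of all windows, was in 0 of the 9 windows of the regulators. TGACA, which holds the core bound by Tgif proteins and can share bases with a neighbouring CAGACA, was in 3 windows, all of *Tgif1*, against 40.0% of all windows. A match says only that these letters are there, and enhancers outside the windows were not searched.

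Other genes of the pathway, in lists written by hand, moved in both directions. Of 15 partners of the corepressor complexes, 7 were higher, 5 lower and 3 not called (median log2 fold change -0.01). *Gps2*, a subunit of a corepressor complex with histone deacetylase 3, had the largest fall of the list and fell by 0.20 on the log2 scale (adjusted p = 0.000423). Of 12 tested relatives of Ski and Tgif proteins among 13, 4 were higher and 4 lower (median 0.04). *Dach1* rose by 0.85 and *Skor1* fell by 1.65, both at under 1 CPM. Without TGF-β1 replicate 8, 2 of these relatives were called higher.

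Among 8 other NEDD4-family ligases and adaptors, 3 were higher, 3 lower and 2 not called (median -0.03). *Wwp1*, a ligase known to act with Smad7 on the receptor, fell by 0.64 (188 ± 4.53 to 121 ± 3.13 CPM, adjusted p = 3.60e-24), and *Wwp2* rose by 0.36 (45.04 ± 1.254 to 57.89 ± 2.21 CPM, adjusted p = 8.14e-12). The fitted rise of *Hecw1* was also 0.36, but at a far lower level and with less certainty (3.763 ± 0.7542 to 4.823 ± 0.3949 CPM, adjusted p = 0.0116). Without vehicle replicate 3 or TGF-β1 replicate 6, 2 genes of this list were called higher. Of 12 other ubiquitin ligases and deubiquitinases of the pathway, 7 were higher and 2 lower, all by 0.23 or less on the log2 scale (median 0.08). The largest rise was that of *Uchl5* at 0.23 and the largest fall that of *Usp4*, which fell by 0.13.

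Of 11 other inhibitors of the pathway, 6 were higher, 1 lower and 4 not called (median 0.12). *Smad7*, the inhibitory Smad that brings Smurf ligases to the receptor, rose by 0.60 on the log2 scale (48.8 ± 2.27 to 74.2 ± 1.69 CPM, adjusted p = 1.96e-19), between the rises of *Tgif1* and *Ldlrad4*. *Smad6*, the inhibitory Smad better known from BMP signalling, fell by 0.25. Of the 5 receptor-activated Smads and *Smad4*, 1 was higher and 2 lower (median -0.05), *Smad1* at 0.31 and *Smad9*, which fell by 0.56. The called share of these lists ran from 50% to 80% of the genes tested, where 41.3% of all genes tested were called in either direction. Apart from the relatives of Ski and Tgif proteins, 0 genes of these lists had a mean below 1 CPM. A small change is easier to call in a more abundant gene, and no share was taken over genes of like level.

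**Figure D5:**
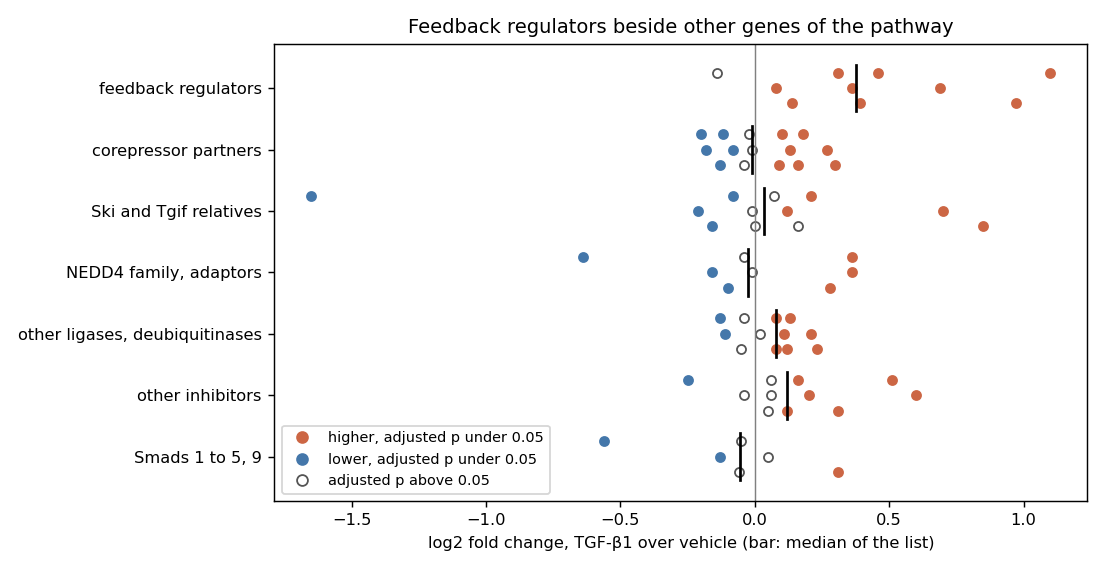
Log2 fold change (x axis, TGF-β1 over vehicle) of each tested gene in the regulators and in 6 lists of other pathway genes, with the list's median as a black bar. The median of the regulators is 0.38 and those of the other lists lie between -0.05 and 0.12.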

How the data were processed

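RNA from 8 cultures was extracted and made into stranded total RNA libraries. The deposited values are raw counts per Ensembl gene. To make them, per the methods and the labels, the authors used STAR 2.7.5c for alignment to mm10, samtools 1.15 against PCR duplicates and featureCounts 2.0.3 for the counting. The strand setting and annotation release are not given in the sources used here.

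Symbols and positions came from GENCODE M21 on GRCm38, the assembly mm10 names, which held 54495 of the 54532 identifiers. Counts were tested with edgeR 4.0.16 in R 4.3.3 (filterByExpr, TMM, robust quasi-likelihood fit), with Benjamini-Hochberg adjustment over 22544 genes and a threshold of 0.05, and the standard error was the log2 fold change divided by the square root of F. A count of 3 is 0.0631 to 0.0658 CPM. Low counts were mostly even (68.5% to 70.2% of counts from 1 to 20), so both mates of a pair may have been counted. Pairs of cultures within a group gave a chi-square of 2.25 to 3.93 per degree of freedom and were kept as separate replicates. Pairs between the groups gave 51.3 to 68. Counting both mates of a pair would itself raise such a value. How far the cultures within a group differ beyond sequencing noise was not tested, and the small p-values rest on this narrow spread. The labels do not say that cultures came from separate animals, while the methods speak of independent isolates. The p-values therefore set the difference between the groups against the spread between these cultures. Whether that is a spread between animals is not known. The code was tested on simulated data.

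The members and lists were chosen with earlier results of these data known. All 10 members are named, with the called gene of largest rise and of largest fall in each pathway list, *Cthrc1* from the response list, and the genes most like the member with the largest rise. Some items this rule names are not reported here. *Tgfbi*, marker genes, the genes opposite *Tgif2* and *Ldlrad4* and the 4 ratios were added. Alternatives were DESeq2 1.42.0, other scalings and filters, halved counts and each culture left out.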

Additional observations from a re-analysis of the deposited data

Results flagged for a closer look

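Of 30 groups of 4 values (the level of each regulator, the totals and the 4 ratios in each group), 2 held a value set well apart from the remaining 3. Chance alone flags about 1 in 20 groups. *Smurf2* was at 84.33 CPM in vehicle replicate 3 and at 78.55 CPM in the nearest vehicle culture. The log2 ratio of *Skil* to *Ski* was -1.115 in vehicle replicate 3 and -1.179 in the nearest vehicle culture. Both fall in the same culture, which also had the largest total of counts (47651397).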

How the results depend on the processing

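Under the 15 alternatives (DESeq2, 3 other scalings of the libraries, a looser and a stricter filter, halved counts and each of the 8 cultures left out), *Ski*, *Skil*, *Pmepa1*, *Bambi*, *Smurf1*, *Tgif1*, *Ldlrad4* and *Nedd4l* kept their direction and call. Their log2 fold changes ranged from 1.07 to 1.13 for *Pmepa1*, 0.96 to 0.99 for *Skil*, 0.67 to 0.71 for *Tgif1*, 0.42 to 0.49 for *Ldlrad4*, 0.34 to 0.44 for *Bambi*, 0.35 to 0.37 for *Smurf1*, 0.30 to 0.33 for *Ski* and 0.12 to 0.15 for *Nedd4l*, where the highest adjusted p was 0.0208. *Tgif2* stayed uncalled, between -0.20 and -0.06. *Smurf2* lost its call in 6 of the 15, so 8 regulators were called there in place of 9, and the cause was not tested. The number of genes called went from 9304 to 8636 with DESeq2 and lay between 8559 and 9311 over the alternatives, and no scaling moved the median of all genes by over 0.1 on the log2 scale. The 4 ratios, tried only with halved counts and with each culture left out (chosen after seeing the data), kept their direction, at 0.63 to 0.69 for *Skil* to *Ski*, 0.75 to 0.90 for *Tgif1* to *Tgif2*, 0.25 to 0.30 for *Smurf1* to *Smurf2* and 0.61 to 0.67 for *Pmepa1* to *Ldlrad4* with each culture left out. Depth limits *Tgif2* and *Bambi*, with at most 160 and 243 counts per culture. No paired analysis was possible because the labels number the vehicle cultures 1 to 4 and the TGF-β1 cultures 5 to 8, although the methods describe isolates given both treatments.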

Other observations

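*Pmepa1*, the regulator with the largest rise, was compared with 10187 other genes of at least 10 CPM on average by the Pearson correlation of log2 CPM over the 8 cultures. Among the most similar were *Vmn2r79* (r = 0.9993, log2 fold change 2.44) and *Tnfrsf23* (r = 0.9991, log2 fold change 0.94), a decoy receptor. With 4 cultures in each of 2 groups such a value mostly reflects the difference between the groups, and 13.0% of the genes compared had a correlation above 0.95.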
